A study of Mus musculus with 2 samples.

Results

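Ccr1, Ccr2, Ccrl2, Cx3cr1, Cxcr2 and Cxcr4 encode receptors through which myeloid cells sense chemokines, and they were followed here as 6 of the 54751 gene rows of the deposited count table, chosen by gene name. The libraries came from cultured MDSCs (suppressor cells of the myeloid lineage, which can restrain T cells), grown from the bone marrow of wild-type (WT) mice. One culture received vehicle (control) and the other mrWNT2, WNT2 being a secreted WNT ligand. Cells were treated on day 0 and day 3 and collected on day 6. The labels give 1 sample per group, with the same genotype and medium, and do not give the number of animals or the factors used to drive differentiation. There were no replicates, so no test was possible, no p-value is given, and every interval below covers counting error only and compares 2 libraries rather than 2 treatments.

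Chemokine receptors are membrane receptors that signal through inhibitory G proteins and steer leukocytes along gradients of small secreted proteins. Cxcr2 is the main chemokine receptor of neutrophils, and Ccr2 draws inflammatory monocytes out of the marrow. Ccr1 is carried by neutrophils, monocytes and macrophages. Cxcr4 binds Cxcl12 and holds myeloid cells in the marrow, and Cx3cr1, the receptor for Cx3cl1, marks patrolling monocytes and many tissue macrophages. Ccrl2 differs from the others in that it binds chemerin, the product of Rarres2, and presents it to neighbouring cells without the usual G protein signalling.

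Of the 6 genes, Cxcr4 had the largest difference and was 1.54-fold lower in the mrWNT2 library (95% interval 1.44 to 1.64). Ccr2, Ccr1 and Cxcr2 were lower by smaller amounts, 1.24-fold, 1.15-fold and 1.09-fold. Ccrl2 went the other way and was 1.48-fold higher (1.22 to 1.81). Cx3cr1 was close to absent, with 0 counts in control and 3 in mrWNT2.

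The upstream sequences of Ccrl2 and Cxcr4 are shown because these genes lay at opposite ends of the measured ratios. Both are RefSeq sequence on GRCm38.p6, minus strand, and end before the first annotated exon. The Ccrl2 stretch is chr9:111057520-111057768, which is 249 of the 250 bases searched, since the last base lies in an annotated exon, with the capitals marking the match to the NF-kB consensus. The Cxcr4 stretch is chr1:128592300-128592549, with the capitals marking matches to the GC box GGGCGG, here on the opposite strand as CCGCCC.
Ccrl2: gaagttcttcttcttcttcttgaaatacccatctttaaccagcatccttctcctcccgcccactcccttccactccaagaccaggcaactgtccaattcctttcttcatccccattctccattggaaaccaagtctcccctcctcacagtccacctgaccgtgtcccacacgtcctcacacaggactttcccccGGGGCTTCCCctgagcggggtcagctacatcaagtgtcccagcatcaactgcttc
Cxcr4: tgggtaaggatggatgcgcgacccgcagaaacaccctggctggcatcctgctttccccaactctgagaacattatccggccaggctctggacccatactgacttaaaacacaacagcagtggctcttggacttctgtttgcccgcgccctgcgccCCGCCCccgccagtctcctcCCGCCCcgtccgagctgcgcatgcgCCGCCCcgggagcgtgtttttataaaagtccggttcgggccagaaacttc

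All 6 genes were found among the RefSeq start sites, and the 250 bases before the most upstream start of each were searched on both strands. Cxcr4 had 3 GC boxes and 19 CG pairs in its window, against a median of 6 CG pairs over 32851 windows of the same length, 32.7% of which held a GC box. Ccrl2 had 1 match to the NF-kB consensus, 1 GC box, 2 CCAAT boxes and 5 CG pairs. The NF-kB match was shared with Ccr1 alone among the 6 genes and was present in 7.25% of all windows. CCAAT was present in 33.8% of all windows, and Cx3cr1 and Cxcr2 had 1 match each. For the TCF/LEF factors of canonical WNT signalling the letters CTTTGAA or CTTTGAT or CTTTGTA or CTTTGTT were searched. Of the 6 windows only that of Ccr2 held a match, against 14.8% of all windows. No matches of different motifs overlapped in the printed stretches. A match describes the letters only and was not tied to binding by any measurement here.

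The control library held 13474453 counts over 20574 detected genes and the mrWNT2 library 12621110 over 20202. Levels are given as CPM, the count divided by TMM-scaled library size, for comparing libraries, and as the authors' deposited FPKM, which divides by gene length, for comparing genes. The myeloid label was borne out by neutrophil markers such as S100a8 and S100a9, whose list summed to 62673 CPM in control and 50900 in mrWNT2. B cell markers summed to 4.64 and 4.25 CPM, with Pax5 at 0 in both libraries, and T and NK cell markers to 21.5 and 21.6 CPM, most of it from Nkg7 with 270 and 263 counts, while Ncr1 was at 0 in both.

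Per unit length the 6 genes fell into a high and a low group. In control, Ccr1 stood at 217 FPKM, Cxcr2 at 141 and Cxcr4 at 95. Ccrl2 at 5.10 FPKM and Ccr2 at 3.55 were far lower, Cxcr4 being 18.6-fold above Ccrl2. In mrWNT2 the values were 185 for Ccr1, 126 for Cxcr2, 60.4 for Cxcr4, 7.39 for Ccrl2 and 2.79 for Ccr2. The order was the same in both libraries, and the counting intervals of neighbours in that order did not overlap in either. These intervals do not cover the choice of gene length, which was 6760 bases for Ccr2 and 2598 for Ccrl2. By counts, Ccr2 was above Ccrl2 in control (317 against 175) and close to it in mrWNT2 (243 against 247). The gap between Cxcr4 and Ccrl2 was 8.17-fold in mrWNT2.

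**Figure D1:**
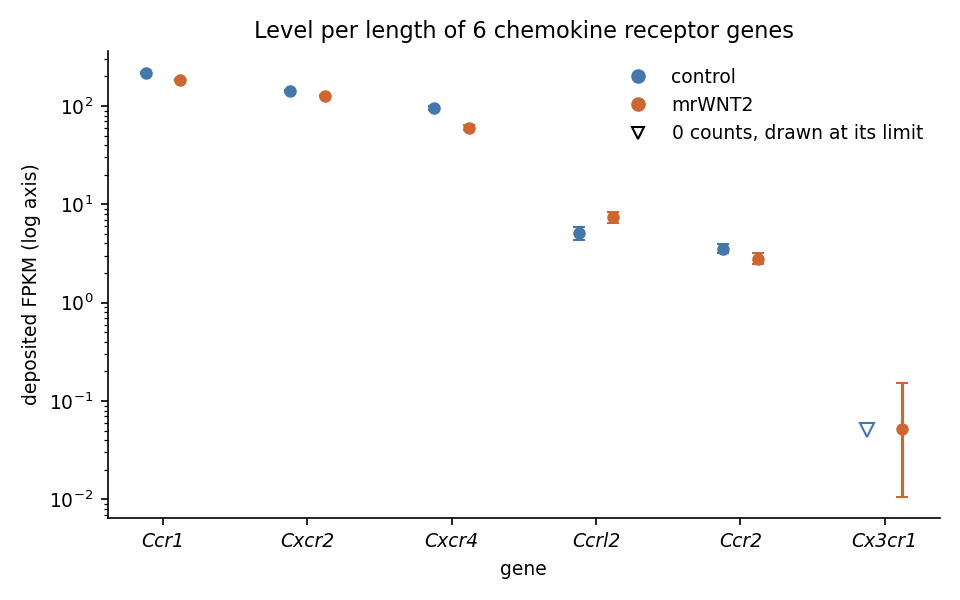
Deposited FPKM (log axis) of the 6 receptor genes in the control (blue) and mrWNT2 (orange) library, 1 point per library, with bars for the 95% Poisson interval of the count. Ccr1, Cxcr2 and Cxcr4 lie above 60 FPKM in both libraries, Ccrl2 and Ccr2 between 2.79 and 7.39, and Cx3cr1, whose 0 in control is drawn at the level of 3 counts, at the bottom.

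These 6 genes carried most of the chemokine receptor transcript in the cultures. Of the FPKM summed over them and the 20 other receptor genes used here, they made up 96.6% in control and 93.5% in mrWNT2. Ccr1 alone took 45.4% and 45.3%, and Cxcr2 29.5% and 30.9%. The share of Cxcr4 was 19.9% in control and 14.8% in mrWNT2, and that of Ccrl2 was 1.07% and 1.81%.

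Cxcr4, the receptor for Cxcl12, is on chromosome 1 (ENSMUSG00000045382, 128588199 to 128592293, minus strand, GRCm38). Control had 2270 counts and mrWNT2 1405, or 170 and 110 CPM. The control library was the higher of the pair, and the log2 ratio of -0.62 (interval -0.72 to -0.52) lay at percentile 6.47 of all genes measured. Cxcr4 was the only member at least 1.5-fold lower. No 50-base window of its transcripts occurred in another gene's transcripts, and no other gene overlapped it.

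Cxcr2, which binds the neutrophil-attracting CXC chemokines, is on the same chromosome (ENSMUSG00000026180, 74153989 to 74161246, plus strand). It had 5680 and 4952 counts, or 425 CPM in control and 389 in mrWNT2. The log2 ratio was -0.13 (-0.18 to -0.07). Its close relative Cxcr1, which lies 30.5 kb away, had 8 and 6 counts, so nearly all the transcript of this receptor pair came from Cxcr2. Of the 50-base windows of the Cxcr2 transcripts, 6.68% occurred in transcripts of other genes, none of which shared more than 46 of the 3039 windows.

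Ccr1 and Ccr2 lie together in a receptor cluster on chromosome 9. Ccr1 (ENSMUSG00000025804, 123962124 to 123968692, minus strand), a receptor for Ccl3, Ccl5, Ccl6 and Ccl9, had 8131 counts in control and 6737 in mrWNT2, or 608 and 530 CPM. It ranked 149th by FPKM of all genes in control and 188th in mrWNT2. The log2 ratio was -0.20 (-0.25 to -0.15). Ccr2 (ENSMUSG00000049103, 124101950 to 124113557, plus strand), the receptor for Ccl2 and its relatives, had 317 and 243 counts, or 23.7 and 19.1 CPM. Its log2 ratio was -0.31 (-0.56 to -0.07), with the upper bound just short of no difference.

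Ccr1l1, which lies 8.55 kb from Ccr1, had 0 counts in both libraries. Ccr3, the eotaxin receptor of eosinophils, had 39 and 22 counts and a log2 ratio of -0.75 (-1.58 to 0.04), an interval that includes 0. The 4 eosinophil markers were all within 1.5-fold and summed to 952 CPM in control and 1123 in mrWNT2. Epx was 1.32-fold and Prg2 1.13-fold higher. Siglecf was 1.10-fold and Il5ra 1.14-fold lower, both with intervals that include no difference. The median log2 ratio of the list was 0.016. Sequence that Ccr2 shares with other genes is not reported here.

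Ccrl2 (ENSMUSG00000043953, 111054486 to 111057519, minus strand) lies on chromosome 9 outside the cluster. Control had 175 counts and mrWNT2 247, or 13.1 and 19.4 CPM, the mrWNT2 library being the higher. The log2 ratio was 0.57 (0.28 to 0.86), at percentile 92.1 of all genes measured. At 1.48-fold it fell just short of the 1.5-fold mark, and with libraries scaled by total counts it was just past it at 1.51-fold. The lactoferrin gene Ltf, 11.7 kb away on the other strand, was far more abundant and went the opposite way, from 11488 to 7398 CPM (log2 ratio -0.63).

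Cx3cr1 (ENSMUSG00000052336, 119901616 to 120069879, minus strand) is also on chromosome 9. Its 0 counts in control allow up to 0.224 CPM, and its 3 counts in mrWNT2 correspond to 0.236 CPM, so no difference was detectable at this depth and no ratio is given. The deposited gene body overlaps 9 other genes, though only 1 of them, the antisense Gm33858 with 0 counts in both libraries, overlaps its exons. Its ligand gene Cx3cl1 had 9 and 12 counts.

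**Figure D2:**
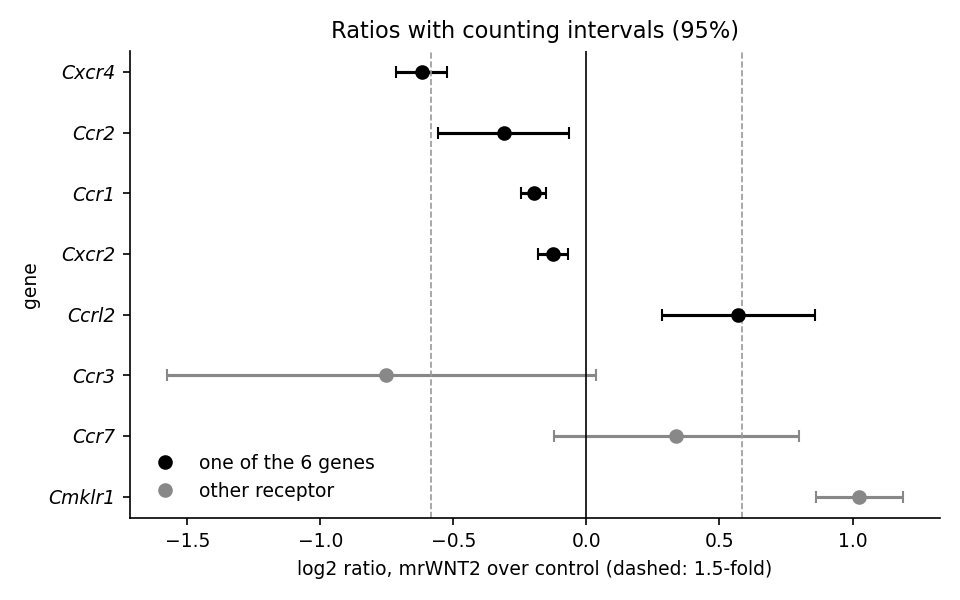
Log2 ratio of mrWNT2 over control with its 95% counting interval for the 5 members with a ratio (black) and 3 other measured receptor genes (grey, mean of 1 CPM or more). Dashed lines mark 1.5-fold. Cxcr4, Ccr2, Ccr1 and Cxcr2 lie to the left of 0 and Ccrl2 to the right.

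A minimum of 1 CPM, averaged over the libraries, left 12856 genes as measured. Of these, 7.02% were lower in mrWNT2 by 1.5-fold or more and 7.62% were higher by as much. Among the 6 receptor genes 5 passed that minimum, and 1 of them was past 1.5-fold in the lower direction and 0 in the higher. No receptor gene of the 6 was past 2-fold, against 2.49% of all genes lower and 3.38% higher. For 4 of the 5 the whole counting interval was under a ratio of 1, and for 1 it was over 1. The same held for 18.8% and 21.0% of all measured genes, and such intervals narrow as counts rise. The median log2 ratio of the 5 was -0.20, beside 0.02 over all genes measured.

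**Figure D3:**
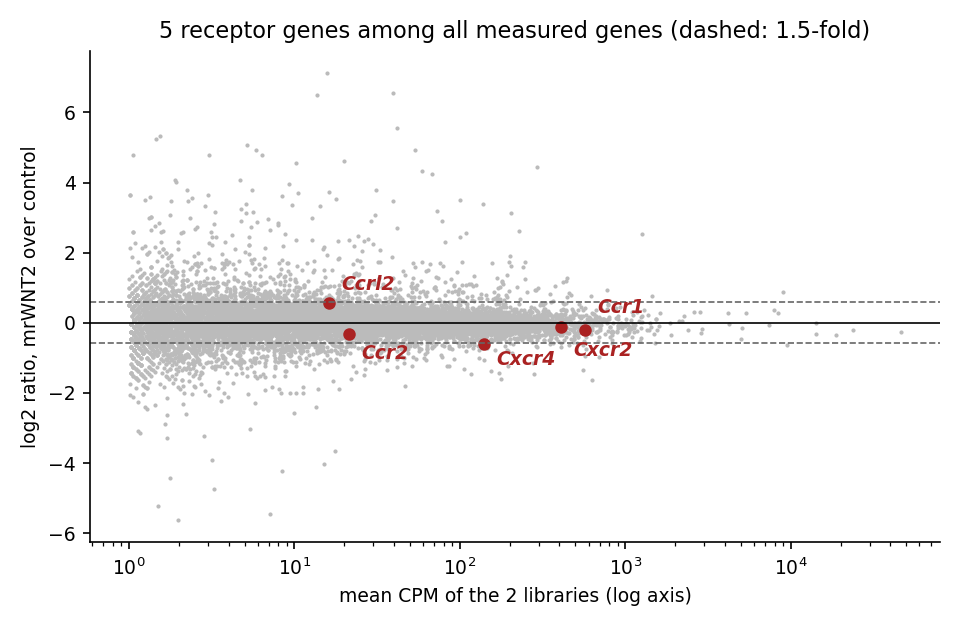
Log2 ratio of mrWNT2 over control against mean CPM (log axis) for measured genes (grey points) and 5 receptor genes (red). Dashed lines mark 1.5-fold, and the receptor genes lie within or close to these lines at every level of expression.

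Ratios between genes of the same library do not depend on how the libraries are scaled. The ratio of Ccrl2 to Ccr2 counts was 0.552 in control and 1.02 in mrWNT2, a 1.84-fold difference (1.41 to 2.40). Ccrl2 differed most from Cxcr4, by 2.28-fold (1.85 to 2.82). It also stood apart from its nearest neighbour in the order of ratios, Cxcr2, by 1.62-fold (1.32 to 1.98). Cxcr4 in turn was lower than its neighbour Ccr2 by 1.24-fold (1.03 to 1.49). Ccr1 and Ccr2 did not differ beyond counting error (1.08-fold, 0.91 to 1.29), and for Cxcr2 and Ccr1 (1.05-fold, upper bound 1.11) the lower bound was just above 1. Of the 10 pairs, the interval included 1 for 2.

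By level alone, each measured member had close companions among protein-coding genes outside the lists. The distance over the pair of log2 CPM values was 0.030 from Ccr1 to Fmnl1, 0.015 from Ccr2 to Kin, 0.031 from Ccrl2 to Fam174a, 0.013 from Cxcr2 to Dock8 and 0.034 from Cxcr4 to Tnrc6b. Between 7 and 25 genes lay within 0.1 of each member, and 2 libraries give little to tell such patterns apart.

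Most of the other chemokine receptor genes were barely detected. Of the 20 others used here, 17 were under a mean of 1 CPM, among them Ackr3, the scavenging receptor for Cxcl12, with 6 and 1 counts. Most gene rows were also under that mean, since 12856 of all 54751 reached it. Of the receptor genes, Ackr2, Ccr1l1, Ccr6, Ccr8, Gpr1 and Pitpnm3 were at 0 in both libraries. Over all rows, 20574 had counts in control and 20202 in mrWNT2. Of the 3 other receptor genes measured, Ccr3 was 1.69-fold lower (0.98 to 2.99). Ccr7, the receptor that guides dendritic cells to lymph nodes, was 1.26-fold higher with an interval of 0.92 to 1.74. Cmklr1, the signalling receptor for chemerin, had 470 counts in control and 910 in mrWNT2 and was 2.04-fold higher (1.82 to 2.28). Ccrl2 and Cmklr1, which bind the same ligand, were thus the chemerin receptors detected, and both were higher in mrWNT2. The chemerin gene Rarres2 had 1 and 2 counts.

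More of the listed ligand genes than of the receptor genes were past 1.5-fold. Of 18 listed ligands 15 were measured, and 8 were past 1.5-fold upward, 5 past it downward and 2 between. Over all measured genes the shares were 7.62% upward and 7.02% downward. The lists were chosen with earlier results of these data known, so the contrast is a description only. The 4 genes listed as Ccr2 ligands, Ccl2, Ccl7, Ccl8 and Ccl12, were all lower. Their sum was 93.7 CPM in control and 19.6 in mrWNT2. Ccl8 had the largest fold difference of the 4, from 28.4 to 1.73 CPM, and Ccl2 went from 38.7 to 13.8 CPM. Receptor use was taken from the list, and whether Ccl8 acts through Ccr2 in mouse cells was not tested. No 50-base window of the transcripts of these 4 genes occurred in those of another gene. Of the 5 measured markers of stroma and endothelium, 3 were also past 1.5-fold downward, Col1a1 by 2.61-fold (1.94 to 3.55), Col1a2 by 4.18-fold (2.36 to 7.89) and Sparc by 3.07-fold (1.62 to 6.24). Pdgfrb and Pecam1 were within 1.5-fold, Cdh5 had 1 and 0 counts, and the 6 markers summed to 64.9 CPM in control and 57.2 in mrWNT2. Their part in the ligand differences was not tested. Among Cxcr2 ligands, Cxcl1, Cxcl2 and Cxcl3 were higher, Cxcl2 from 266 to 613 CPM and Cxcl3 from 107 to 276 CPM, while Cxcl5 was 2.89-fold lower and Ppbp 1.24-fold lower. The 5 Cxcr2 ligands summed to 430 CPM in control and 943 in mrWNT2.

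Ccr1 ligands were split in the same way. Ccl3, Ccl4, Ccl5 and Ccl9 were higher, with Ccl9 at 535 and 1014 CPM, and Ccl7 was lower. Ccl6, by far the most abundant, went from 5791 to 4194 CPM, and with it the sum over Ccr1 ligands was 6472 CPM in control and 5508 in mrWNT2. Of the Cxcr4 ligands, Cxcl12 had 9 and 3 counts, and Mif, which encodes a cytokine that also binds Cxcr4, was 1.52-fold higher (1.39 to 1.67).

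**Figure D4:**
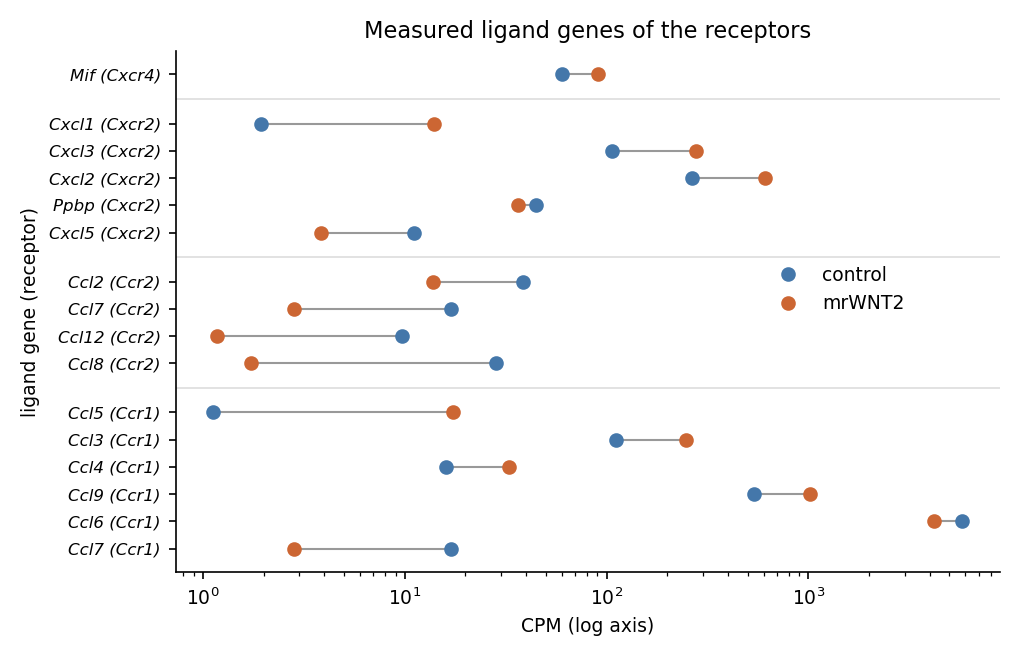
CPM (log axis) of the 15 measured ligand genes in control (blue) and mrWNT2 (orange), grouped by receptor, with a grey line joining the libraries. Ccl7 is drawn under both Ccr1 and Ccr2, and all 4 genes listed as Ccr2 ligands lie lower in mrWNT2. Of the listed Cxcr2 ligands 3 of 5, and of the listed Ccr1 ligands 4 of 6, were at least 1.5-fold higher.

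Of 32 measured genes that transmit or switch off the receptor signal, 27 were within 1.5-fold, 4 were past it upward and 1 downward, beside 7.62% and 7.02% of all measured genes. Their median log2 ratio was -0.13, beside 0.02 over all genes measured. Gnai2, which encodes the main inhibitory G protein subunit of leukocytes, had a log2 ratio of -0.13 (-0.16 to -0.10). Pik3r5, the regulatory subunit gene of the G protein-activated PI3 kinase, was 1.72-fold higher (1.61 to 1.82), while the catalytic subunit gene Pik3cg was within 1.04-fold. Gng12, a G protein gamma subunit gene, was 1.53-fold higher. Of 14 measured genes that end signalling, all but Rgs1 and Grk3 were lower in mrWNT2 by any amount, beside 47.7% of all measured genes. The median log2 ratio of the 14 was -0.29. Of the 14, 11 were within 1.5-fold, and the interval of Rgs10 included 0 (-0.45 to 0.16). Rgs1, which speeds the shut-off of G proteins, was 2.11-fold higher (1.79 to 2.51) and the receptor kinase gene Grk3 1.81-fold higher. The arrestin gene Arrb2 was 1.31-fold lower, and Grk4, with 44 and 24 counts, 1.74-fold lower (1.04 to 3.00).

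Marker genes of the cells that carry these receptors also differed between the libraries. Of 9 neutrophil markers 4 were at least 1.5-fold lower and 0 higher, with a median log2 ratio of -0.40. Of 7 monocyte markers 1, Csf1r, was at least 1.5-fold higher and 1, Fcgr1, lower, and their sum was 3064 CPM in control and 3042 in mrWNT2. Of 8 macrophage markers 5 were at least 1.5-fold lower and 1 higher, and the sum was 2769 and 1798 CPM. Over all measured genes, 7.02% were at least 1.5-fold lower and 7.62% higher. All markers of these 3 lists were detected in both libraries. Their part in the receptor differences was not tested, and in RNA from whole cultures fewer cells of a type and less RNA per cell cannot be told apart.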

How the data were processed

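RNA-seq libraries of 2 mouse bone marrow-derived MDSC cultures, 1 per group, were compared. The authors deposited raw counts and FPKM per gene. Per the submitters' processing notes, the tools were HISAT2 2.0.5 and featureCounts 1.5.0-p3, with DESeq2 1.20.0, fastp and CASAVA 1.8, on GRCm38 (mm10). Strand handling was not given in the sources used here. Antisense genes cannot be separated with certainty. Columns were matched to samples by name. The FPKM ratios equalled count ratios under DESeq2 scaling to within 1.2e-08 on the log2 scale over 10078 genes, and FPKM served for levels between genes.

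Counts were scaled with edgeR 4.0.16 (R 4.3.3), whose TMM factors were 0.992 in the control library and 1.01 in the treated library. Ratios used no pseudocount and have exact 95% Clopper-Pearson intervals from the pair of counts, and levels have Poisson intervals. A count of 0 was set to 3 counts, 0.224 CPM in control and 0.236 in mrWNT2, as a floor rather than an upper limit. No ratio was given where both counts were 3 or fewer. Ratios between genes have conditional exact intervals for an odds ratio (scipy 1.17.1). Reads carry no molecular identifiers, so intervals cover counting error only and may be too narrow. The intervals were also run on simulated Poisson counts. Those hold counting error only, so the simulation could not check the intervals against replicate variation.

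Named genes were the 6 members, ligands and receptors of the lists, signalling genes mainly where past 1.5-fold, the nearest protein-coding gene by level, and neighbours in the genome. Gnai2, Pik3cg, Arrb2, single cell markers and listed genes under 1 CPM were named after their values were seen. DESeq2 1.42.0 gave the size factors used as an alternative. Members and lists were chosen with earlier results of these data known. A listed receptor gene is not reported here. Of 143 list symbols, 2 older synonyms were not found. Coordinates of the 6 genes are those of the deposited table and equal GENCODE M21. Shared sequence was counted as exact 50-base windows of GENCODE transcripts on either strand.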

Additional observations from a re-analysis of the deposited data

How the results depend on the processing

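Alternatives were DESeq2 size factors, total counts, upper-quartile factors, the deposited FPKM, log2(CPM + 1) and a mean of at least 10 CPM or no minimum. The FPKM ratios repeat those under DESeq2 size factors and are not a separate check. Over 25 alternative values, 0 of the 5 log2 ratios changed sign, and 1 left its counting interval: Ccr1 was -0.25 with upper-quartile factors, against -0.20. Cxcr4 ranged from 1.51-fold to 1.59-fold lower and Ccrl2 from 1.43-fold to 1.51-fold higher, so with total counts 1 member was at least 1.5-fold higher in place of 0. Signalling genes at least 1.5-fold lower numbered 2 with DESeq2 size factors, with upper-quartile factors, with FPKM and with no minimum, and 0 with a mean of at least 10 CPM, against 1. With that higher minimum, receptors outside the members at least 1.5-fold lower numbered 0 and ligands 2, against 1 and 5, since fewer genes were counted. With no minimum, 4 of those receptors were higher and 3 lower, against 1 and 1. No paired analysis was possible because each group has 1 sample, and leaving out a replicate was not possible either. Depth limits Cx3cr1, Cx3cl1, Rarres2 and Cxcl12, and replicate variation was not measured.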
